A study of Mus musculus with 3 samples.

Results

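The endothelin system of mouse retina was followed through 6 genes: the ligand genes Edn1, Edn2 and Edn3, the receptor genes Ednra and Ednrb, and Ece1, which encodes endothelin-converting enzyme 1. A gene was measured where the platform annotation gave at least 1 probe set its symbol and no other, and 5 of the 6 met this, of 22180 such genes in all. No probe set was listed for Ednra alone, so this receptor is not analysed here. Each of the 5 had 1 probe set. The genes were chosen by their known roles and by measured values of these same arrays, the high Ednrb level among them, so all values below are a description and carry no test.

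The 3 arrays came from retinae of C57 mice after injection into the vitreous of the eye. One received Cav1-shRNA, a short hairpin RNA against the transcript of caveolin-1, and was taken after 2 days. One received cavtratin, a cell-permeable peptide with the scaffolding domain of caveolin-1, and was taken after 2 hr. One received AP, the control, taken after 2 hr, an abbreviation that the labels do not spell out. RNA of 5 to 6 retinae was pooled for each array, which stood alone in its group, so a difference compares 2 pools and not 2 conditions, and no SD or p-value exists for it. The time after injection and the agent cannot be told apart in any comparison with the Cav1-shRNA array. In pooled tissue, more cells of a type and more RNA per cell also cannot be told apart.

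Endothelins are short peptides that are made as long precursors and cut to their active form by a membrane metalloprotease, endothelin-converting enzyme. They act on 2 G-protein-coupled receptors. The A receptor, on vascular smooth muscle and pericytes, drives contraction, and binds endothelin-1 and endothelin-2 far more strongly than endothelin-3. The B receptor binds all 3 peptides alike. It releases nitric oxide from endothelium, clears the peptides from blood, and is needed for neural crest cells such as melanocytes. In the retina the B receptor is carried by Muller glia and astrocytes, and endothelin-2 is known as a signal of injured photoreceptors to Muller glia.

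All values are the deposited ones, read as log2 expression. A floor of 6.50, the median of all probe sets with 1 symbol, marked low expression. A gene counted as 2-fold apart where 2 arrays differed by 1 or more and at least 1 of them reached the floor. Cav1, the gene that the hairpin names, stood at exactly 8.26 in the arrays of Cav1-shRNA, cavtratin and AP control alike. This tie does not show whether the hairpin lowered Cav1, so the array is called the array labelled Cav1-shRNA. The rod markers Gnat1 and Sag, at 13.19 and 12.53 on all 3 arrays, were as the tissue label has it. Of 11510 genes that reached the floor in some array, 43.2% had exactly 1 value on all 3 arrays and 75.3% had the same value on at least 2. This bears on the Cav1 tie and on the ties reported below.

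Sequences before a start of Ednrb and of 2 ligand genes are shown because Ednrb stood apart from the ligands in the values below. Each is the 250 bases before a start in RefSeq, build GRCm38.p6, printed 5′ to 3′ on the gene's own strand. For Edn1 and Edn2 that is the start of the gene. The Ednrb window, at chr14:103843702-103843951 on the minus strand, lies within the gene's annotated span, whose outer start is at 103844508. It is thus not sequence upstream of the whole gene. The Edn1 window is at chr13:42301226-42301475 and the Edn2 window at chr4:120160956-120161205, both on the plus strand. Capitals mark the 1 motif match found in these 3 stretches, a core of the cyclic AMP response element.
Ednrb: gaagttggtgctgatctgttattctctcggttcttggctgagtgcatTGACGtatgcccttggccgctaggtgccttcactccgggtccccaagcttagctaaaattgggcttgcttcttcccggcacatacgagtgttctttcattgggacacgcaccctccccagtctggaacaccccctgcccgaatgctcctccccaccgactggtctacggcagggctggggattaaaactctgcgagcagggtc
Edn1: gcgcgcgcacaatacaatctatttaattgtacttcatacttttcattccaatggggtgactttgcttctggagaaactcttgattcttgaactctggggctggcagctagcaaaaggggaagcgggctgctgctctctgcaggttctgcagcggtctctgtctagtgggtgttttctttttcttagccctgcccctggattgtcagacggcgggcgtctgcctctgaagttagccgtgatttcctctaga
Edn2: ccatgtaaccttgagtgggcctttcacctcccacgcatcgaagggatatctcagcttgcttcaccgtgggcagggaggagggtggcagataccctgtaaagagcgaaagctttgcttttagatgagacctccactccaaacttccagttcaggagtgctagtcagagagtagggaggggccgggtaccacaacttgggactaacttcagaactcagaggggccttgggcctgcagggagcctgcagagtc

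Windows of 300 bases, from 250 before to 50 after the start, were searched on both strands for 8 motifs. The letters were TGANTNA for AP-1, AGATAA for GATA factors, ACGTG for hypoxia-inducible factors, TTCNNNGAA for STAT factors, GGGANTTTC for NF-kB, TGACGTCA for the full cyclic AMP response element, TGACG for its core, which the full element contains, and ACAAAG for SOX factors. The core was added after the sequences were seen. In Ednrb the 1 match was the core TGACG, at position −203 from the start inside the gene's span. Of 32851 windows, 20.8% hold that core. In Edn1 the matches lay after the start: TTATCT, the GATA letters read on the other strand, from position 9, CACGT, the hypoxia letters on the other strand, from position 22, and TGACTAA, an AP-1 match, from position 37. Of all windows, 11.2%, 19.6% and 35.3% hold a GATA, hypoxia and AP-1 match. The Edn2, Edn3 and Ednra windows held none of the 8, and 1 of the 4 Ece1 windows held the hypoxia letters. The other shares were 8.30% for STAT, 1.11% for NF-kB, 1.79% for the full cyclic AMP response element and 18.7% for SOX. A match or its absence describes these letters only.

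The B receptor gene Ednrb held the widest range of the 5 measured genes. Its probe set, 17309268 (gene at chr14:103814615-103844508), read 8.94 in the array labelled Cav1-shRNA, 10.05 in cavtratin and 7.98 in AP control. The cavtratin array was highest, the array labelled Cav1-shRNA lay in between, and AP control was lowest, with every value well above the floor. The difference of cavtratin from AP control was 2.07, a 4.19-fold higher level. It was the 1 measured member at least 2-fold apart there, against a background of 1.36% of 11477 genes that were 2-fold higher and 0.0958% that were 2-fold lower. At 1.5-fold it was again the 1 member, beside 2.19% of genes higher and 0.235% lower. Of those 11477 genes, Ednrb included, 50 had a difference at least as high.

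In the array labelled Cav1-shRNA, Ednrb was 0.96 higher than in AP control, a 1.94-fold higher level that fell just short of the 2-fold line. None of the 5 members was 2-fold apart in this comparison, in which 0.341% of 11433 genes were 2-fold higher and 0.122% were 2-fold lower. At 1.5-fold the count of members was 1, Ednrb, against 0.901% of genes higher by that much and 0.367% lower. Centring each array on its median put Ednrb at 1.02, over the line. Of the 11433 genes, 43 had a difference at least as high as Ednrb. Set directly against cavtratin, the array labelled Cav1-shRNA was lower, with a difference of −1.11. Ednrb was the 1 member 2-fold apart there, beside 0.785% of 11472 genes that were 2-fold lower and 0.0349% that were 2-fold higher. At 1.5-fold it was also the 1 member, beside 1.53% of genes lower and 0.0959% higher. Both comparisons with AP control use the same array, so a low reading of that array alone would raise both.

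**Figure D1:**
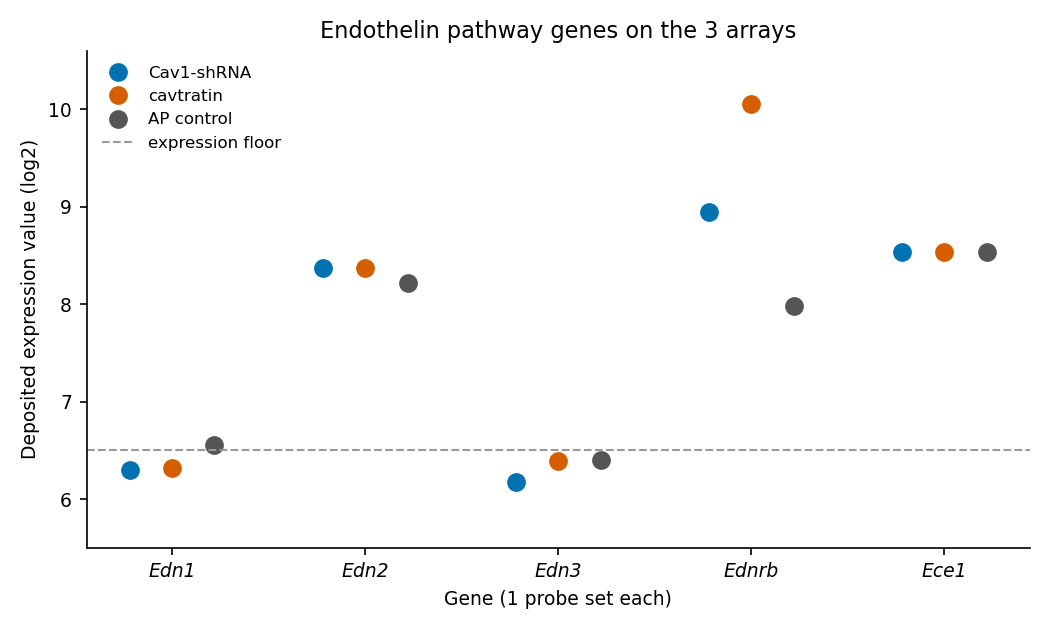
Deposited log2 expression (vertical axis) of the 5 measured endothelin genes on the arrays of Cav1-shRNA, cavtratin and AP control, 1 point per array; the dashed line is the expression floor of 6.50. Ednrb spans 7.98 to 10.05, while Ece1 has 1 value on all 3 arrays and the widest range among the ligand genes is 0.255, in Edn1.

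Edn2 encodes endothelin-2, the ligand that rises in photoreceptors of injured retina. Its probe set, 17417976 (gene at chr4:120161206-120167360), read 8.37 in the array labelled Cav1-shRNA, 8.37 in cavtratin and 8.21 in AP control. The first 2 values were exactly equal, a pattern shared by 11.4% of the 11510 genes. Both were 0.16 above AP control, and 9.04% of genes in the cavtratin comparison and 8.27% in the Cav1-shRNA comparison were at least that far from 0 in either direction. 

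Edn1 encodes endothelin-1, the main vasoconstrictor of the family, made chiefly by vascular endothelium. Its probe set, 17286830 (gene at chr13:42301476-42307990), read 6.30 in the array labelled Cav1-shRNA, 6.32 in cavtratin and 6.56 in AP control. AP control was the 1 array that reached the floor, by 0.057, and the other two were nearly level with each other. The differences from AP control were −0.24 in cavtratin and −0.25 in the array labelled Cav1-shRNA, with 5.66% and 4.29% of genes at least as far from 0. With values this near the floor the size of such a difference is uncertain either way, and both differences use the same AP control array. 

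Edn3 encodes endothelin-3, the ligand that guides neural crest cells through the B receptor. Its probe set, 17380377 (gene at chr2:174760619-174784042), read 6.18 in the array labelled Cav1-shRNA, 6.39 in cavtratin and 6.40 in AP control, below the floor on all 3. Ece1, for the enzyme that makes the active peptides, had exactly 8.54 on all 3 arrays (probe set 17420347, gene at chr4:137862237-137965229). A tie of this kind does not show an unchanged level, given how many genes had one.

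As a yardstick within the arrays, the differences of a pair of probe sets for 1 gene were set against each other in 280 genes. The SD of such a difference about its gene was 0.14 for cavtratin against AP control, 0.088 for Cav1-shRNA against AP control and 0.14 for Cav1-shRNA against cavtratin, which holds no spread between animals. Exact ties between arrays can also narrow that SD. The Ednrb differences were several times those values in all 3 comparisons. For cavtratin against AP control, the Edn2 difference of 0.16 and the Edn1 difference of −0.24 were closer to the SD of 0.14. For Cav1-shRNA against AP control, 0.16 in Edn2 and −0.25 in Edn1 stood beside an SD of 0.088. The 99th percentile of the size of a difference over all genes at or above the floor was 1.35, 0.667 and 0.862 in the same order of comparisons, and Ednrb lay beyond each. The genes were chosen with the Ednrb level known, so its place beyond these yardsticks is a description only.

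**Figure D2:**
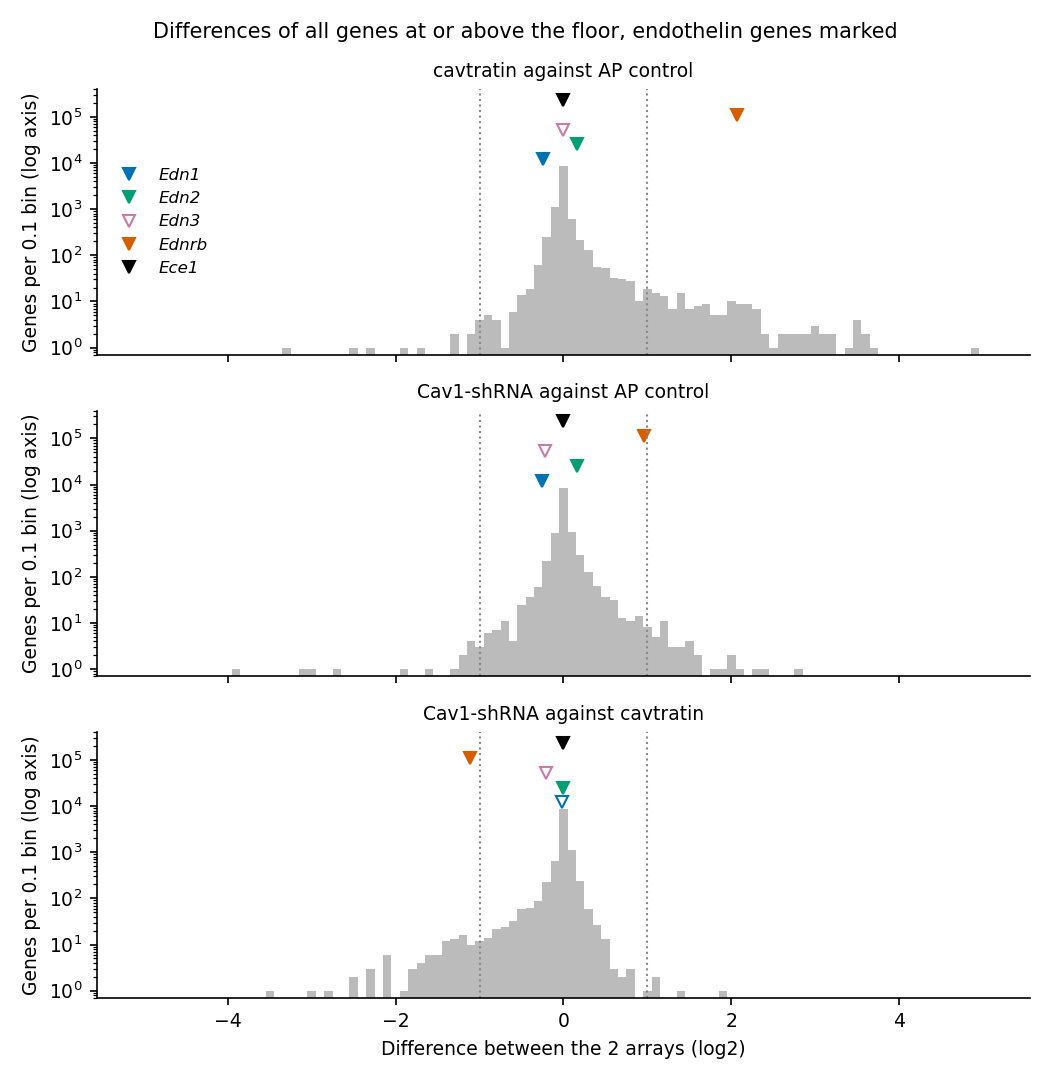
Histograms of the log2 difference between 2 arrays (horizontal axis) over all genes at or above the floor, with a log vertical axis of genes per 0.1 bin, for the 3 comparisons; triangles mark the endothelin genes, open where both arrays are below the floor, and dotted lines mark 2-fold. Ednrb stands at 2.07, 0.96 and −1.11, and the other 4 genes lie between −0.25 and 0.16.

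Genes around the receptor were described from 5 lists. Of 6 genes for processing and degradation, all measured, 3 reached the floor. Of those 3, 0 were 2-fold apart in any comparison, which is near the 1.36% higher and 0.0958% lower of all genes in cavtratin against AP control. The shares were 0.341% and 0.122% in Cav1-shRNA against AP control, and 0.0349% and 0.785% in Cav1-shRNA against cavtratin. The medians were 0.018 for cavtratin against AP control, 0 for Cav1-shRNA against AP control and −0.072 for Cav1-shRNA against cavtratin, and the median over all 22180 genes was 0 in each. Furin, the protease that trims the endothelin precursors before the converting enzyme acts, read 8.49 in the array labelled Cav1-shRNA, 8.88 in cavtratin and 8.48 in AP control, so it was 0.41 higher in cavtratin than in AP control. Ece2, the second converting enzyme, had the same value, 6.78, on all 3 arrays. Mme, neprilysin, which breaks endothelins down, stood below the floor at 5.38, 5.54 and 5.38 for Cav1-shRNA, cavtratin and AP control.

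Of 23 genes that carry the signal of these receptors inside the cell, 21 were measured and 19 reached the floor. Of those 19, 0 were 1.5-fold apart in any comparison, a count near the background. By that much, 2.19% of genes were higher and 0.235% lower in cavtratin against AP control. The shares were 0.901% and 0.367% in Cav1-shRNA against AP control, and 0.0959% and 1.53% in Cav1-shRNA against cavtratin. In cavtratin against AP control 11 lay above 0, 3 below and 7 at 0, with a median of 0.022, while 17.5% of all genes lay above 0, 20.9% below and 61.6% at 0. In Cav1-shRNA against AP control 10 lay above 0, 2 below and 9 at 0, with a median of 0, beside 22.4%, 18.5% and 59.1% of all genes. Those shares include genes below the floor. Among genes at or above it they were 19.6%, 25.9% and 54.5% in the first comparison and 25.2%, 21.9% and 53.0% in the second. The 2 with the widest differences were G-protein subunits. Gna13 was at 8.54, 8.79 and 8.48 in Cav1-shRNA, cavtratin and AP control. Gnai2, an inhibitory subunit, was at 10.26, 10.14 and 9.99 in the same arrays. Gnaq, Plcb1, Plcb4 and Prkca, the route from receptor to calcium release and protein kinase C, differed by at most 0.04 between any 2 arrays.

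Known regulators of Edn1 transcription numbered 12, of which 11 were measured and 8 reached the floor. At 1.5-fold 0 of those 8 were apart in any comparison, near the 2.19% higher and 0.235% lower of all genes in cavtratin against AP control. The shares were 0.901% and 0.367% in Cav1-shRNA against AP control, and 0.0959% and 1.53% in Cav1-shRNA against cavtratin. Fos, an AP-1 subunit, read 7.04 in the array labelled Cav1-shRNA, 7.25 in cavtratin and 7.41 in AP control, lowest in the first and highest in the last. Jun, its partner, read 9.07, 9.13 and 8.95 in those arrays. Hif1a, the hypoxia-responsive factor, had 11.61 on all 3. Klf2, a flow-induced factor that represses Edn1 in endothelium, lay below the floor at 6.17, 6.23 and 5.76, 0.47 higher in cavtratin than in AP control.

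Of 35 other vasoactive peptide and receptor genes, 32 were measured and 9 reached the floor. Of those 9, 0 were 1.5-fold apart in any comparison, a count that the same background shares give for so few genes. In each comparison 21 of the 32 had a difference of exactly 0, though not always the same genes. Of all genes, 61.6% were at 0 in cavtratin against AP control. The shares were 59.1% in Cav1-shRNA against AP control and 60.8% in Cav1-shRNA against cavtratin. Agt, the angiotensin precursor, read 7.93 in the array labelled Cav1-shRNA, 7.55 in cavtratin and 7.69 in AP control, the widest difference among the members at or above the floor. Calcrl, the receptor for adrenomedullin and calcitonin gene-related peptide, was equal on all 3 arrays at 7.33. Nos3, the endothelial nitric oxide synthase that the B receptor engages, was at 6.64, 6.63 and 6.63 in Cav1-shRNA, cavtratin and AP control.

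The injury response that endothelin-2 belongs to was mixed. Of 17 measured genes in that list, 7 lay above 0 and 5 below in cavtratin against AP control, and 6 above and 6 below in Cav1-shRNA against AP control, with medians of 0. All 17 reached the floor. Among all genes that did, 19.6% lay above 0 and 25.9% below in the first comparison, and 25.2% and 21.9% in the second. Lif, the cytokine that precedes Edn2 in the photoreceptor injury pathway, was the 1 gene 2-fold apart, lower in both. It read 6.50 in the array labelled Cav1-shRNA, 6.50 in cavtratin and 7.62 in AP control. The values of the array labelled Cav1-shRNA and of cavtratin were exactly equal and at the floor. Both differences thus use the same AP control reading. Of all genes, 0.0958% in cavtratin and 0.122% in the array labelled Cav1-shRNA were 2-fold lower than in AP control. Lcn2, a secreted iron-binding protein, read 11.16, 11.52 and 10.92, at 0.60 above AP control in cavtratin. Gfap, the filament protein of reactive glia, read 8.32, 8.33 and 7.96, and Socs3, a brake on cytokine signalling, 7.37, 7.91 and 7.37.

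**Figure D3:**
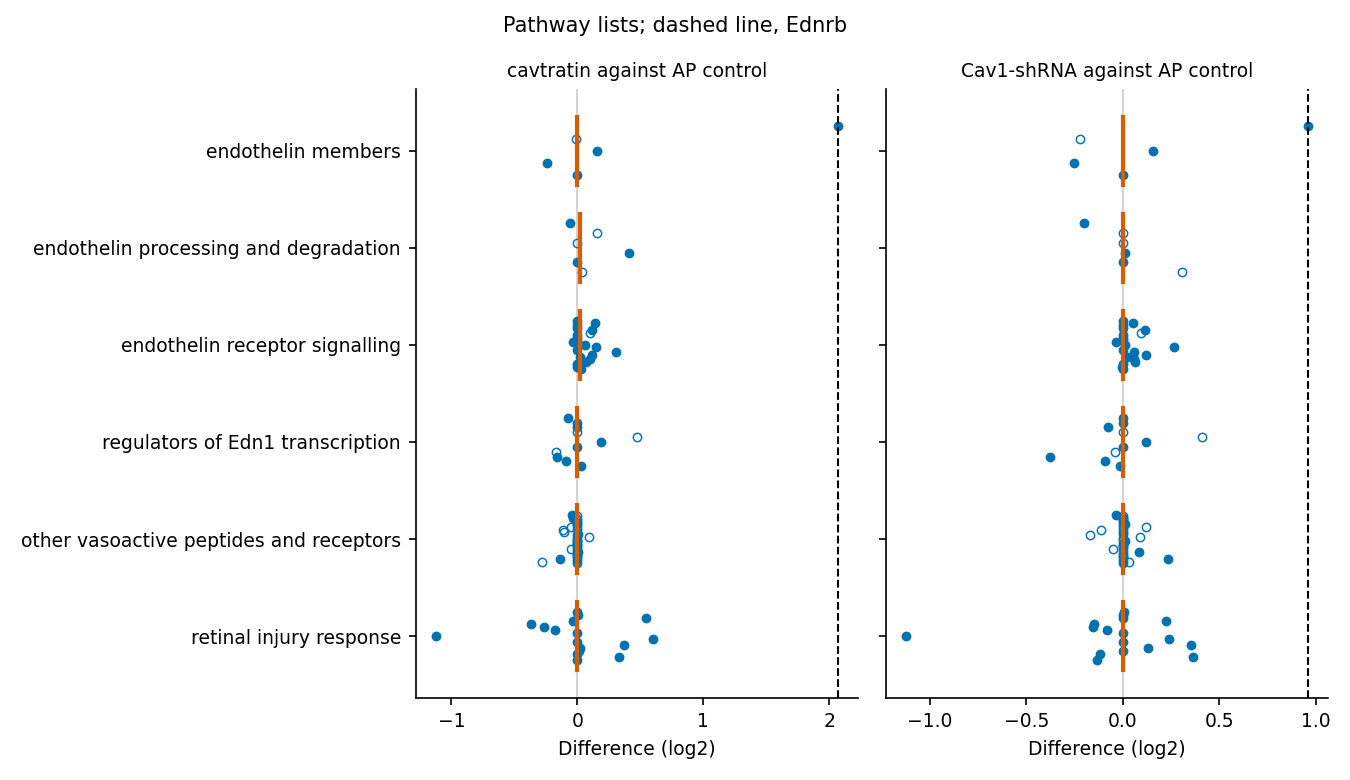
Log2 difference (horizontal axis) of each measured gene in the endothelin set and 5 related lists, for cavtratin against AP control (left) and Cav1-shRNA against AP control (right); filled points reach the floor, orange bars are list medians and the dashed line is Ednrb. No gene of the 5 related lists lies as far above 0 as Ednrb, and Lif is the 1 point beyond −1.

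Markers of cell types known to carry the B receptor were set beside it. Muller glia markers, 11 of 11 measured and at or above the floor on every array, had medians of 0 in cavtratin and 0.070 in Cav1-shRNA against AP control, and a summed level of 13.85, 13.86 and 13.77 on the log2 scale in Cav1-shRNA, cavtratin and AP control. Of 6 astrocyte markers, Gfap was 0.37 and Aldh1l1 0.33 higher in cavtratin. Aldoc, the glial aldolase, read 11.14 in cavtratin and 11.22 in AP control, and Pax2, S100b and Pdgfra were below the floor with no difference. Their summed level was 11.59, 11.53 and 11.54. Neither list was 1.5-fold apart in any member.

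Vascular endothelium markers had a median of 0.010 in cavtratin and 0.14 in Cav1-shRNA against AP control over 12 genes, with summed levels of 11.46, 11.42 and 11.25 in Cav1-shRNA, cavtratin and AP control. In cavtratin 6 lay above AP control, 2 below and 4 at 0, and in the array labelled Cav1-shRNA 9 lay above, 0 below and 3 at 0. Of all 22180 genes, 17.5% lay above AP control in cavtratin, 20.9% below and 61.6% at 0. In the array labelled Cav1-shRNA the shares were 22.4%, 18.5% and 59.1%. Cdh5, the endothelial cadherin, read 8.24, 7.99 and 7.72, and Cldn5, a tight junction protein, 7.15, 6.77 and 6.94. For pericytes and smooth muscle, summed levels were 11.06, 11.02 and 10.96, and the median was 0 in cavtratin and 0.053 in Cav1-shRNA against AP control. In cavtratin 3 lay above AP control, 3 below and 5 at 0, and in the array labelled Cav1-shRNA 8 lay above, 1 below and 2 at 0. Acta2, smooth muscle actin, read 8.50, 8.59 and 8.13, the widest difference in the list, and Rgs5, a pericyte regulator of G-protein signalling, 10.02, 9.93 and 9.99. Melanocyte and pigment epithelium markers summed to 11.13, 11.27 and 11.13, with Dct, an enzyme of melanin synthesis, at 8.08, 8.40 and 7.99. In none of these 3 lists was a gene at or above the floor 1.5-fold apart between any 2 arrays.

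Among the 10 cell type lists, only those of leukocytes and lens held genes 2-fold apart, and their members did not move alike. Microglia and macrophage markers, 16 of 16 measured, summed to 12.25 in the array labelled Cav1-shRNA, 12.52 in cavtratin and 11.56 in AP control, and 14, 14 and 13 of them reached the floor. Of the 16, 6 were 2-fold higher in cavtratin than in AP control and 3 in the array labelled Cav1-shRNA, beside 1.36% and 0.341% of all genes. Itgam, among the 6, read 6.32 in AP control, below the floor. Fcer1g, an Fc receptor adaptor, read 9.90, 10.67 and 8.81 in Cav1-shRNA, cavtratin and AP control, the order of Ednrb, as did Cd68, a lysosomal glycoprotein, at 9.16, 9.67 and 8.09. C1qb, a complement component, read 9.05, 8.54 and 8.63, and Ctss, a lysosomal cathepsin, 9.10, 8.57 and 8.24, so both were highest in the array labelled Cav1-shRNA. Aif1, P2ry12, C1qc and Trem2 had no difference between cavtratin and AP control.

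Neutrophil and monocyte markers, 14 of 15 measured, summed to 10.37 in the array labelled Cav1-shRNA, 11.36 in cavtratin and 9.76 in AP control, with 5, 7 and 4 at or above the floor. The sums of both leukocyte lists thus had the order of Ednrb, and so did the Muller glia sum, by smaller steps. Neutrophil and monocyte medians against AP control were 0.64 in cavtratin and 0.24 in the array labelled Cav1-shRNA. The microglia and macrophage medians, 0.18 and 0.51, had the other order. Of the 14, 6 were 2-fold higher in cavtratin than in AP control, beside 1.36% of all genes. In the array labelled Cav1-shRNA 2 were, beside 0.341%. S100a8, S100a9, Retnlg and Mmp8, among the 6, were below the floor in AP control at 5.98, 5.77, 5.07 and 5.19. They reached the floor in that comparison through the cavtratin array alone. Csf3r, the granulocyte colony-stimulating factor receptor, read 7.71, 9.10 and 7.15. Ly6c2, a monocyte surface protein, read 8.08 in the array labelled Cav1-shRNA, 6.16 in cavtratin and 6.59 in AP control. It was thus higher than AP control in the array labelled Cav1-shRNA but lower in cavtratin, where it was below the floor. Mpo and Elane, granule enzymes of immature neutrophils, stayed below the floor. Lens markers, 15 of 15 measured, summed to 10.82, 13.13 and 10.97 in Cav1-shRNA, cavtratin and AP control. Of these, 4 were 2-fold higher in cavtratin than in AP control, beside the same 1.36% of all genes. They were Cryba1 at 3.08, Cryaa at 2.83, Crygs at 2.77 and Cryba4 at 1.54, all crystallins. Cryba4 read 6.11 in AP control, below the floor. Mip, a lens water channel, was at −0.06. The part of leukocytes and lens in the Ednrb values was not tested.

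**Figure D4:**
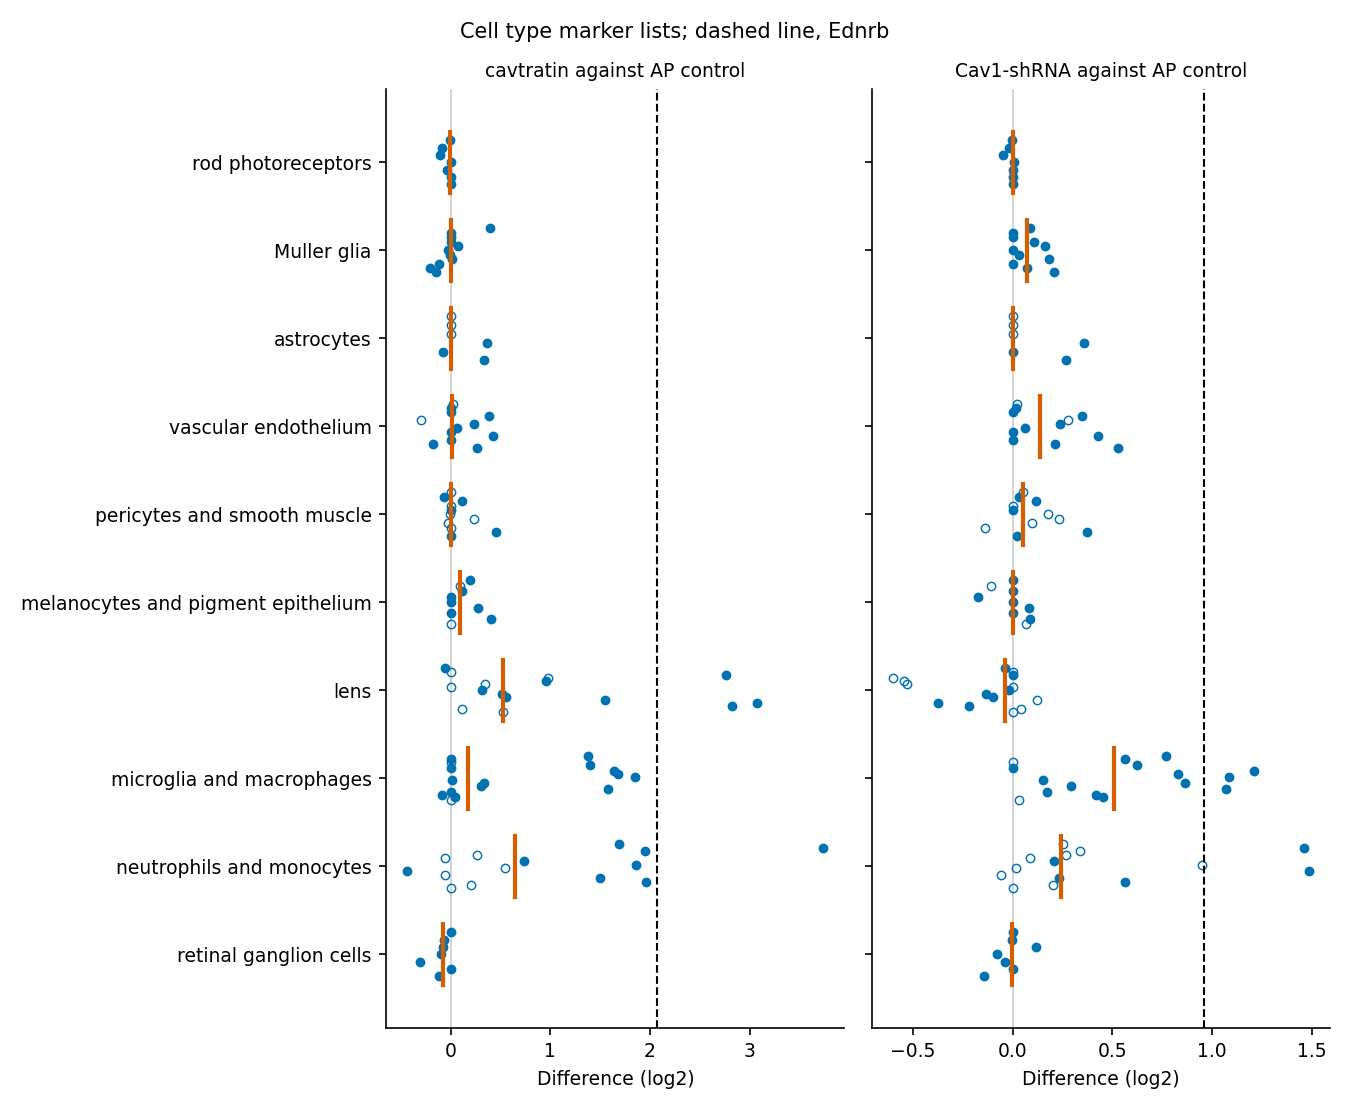
Log2 difference (horizontal axis) of each measured marker in 10 cell type lists, for cavtratin against AP control (left) and Cav1-shRNA against AP control (right); filled points reach the floor, orange bars are list medians and the dashed line is Ednrb. Points to the right of Ednrb are lens markers and the neutrophil marker S100a8 on the left, and microglia and macrophage and neutrophil and monocyte markers on the right.

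A pattern like that of Ednrb was looked for among the other 11509 genes at or above the floor in some array, as the smallest Euclidean distance over the 3 arrays after each gene was centred on its own mean. Egln3, an oxygen-sensing prolyl hydroxylase, was closest at a distance of 0.043, with 7.46 in the array labelled Cav1-shRNA, 8.62 in cavtratin and 6.56 in AP control. Csf2rb2, a receptor subunit for interleukin-3, followed at 0.053, and Clec5a, a myeloid C-type lectin, at 0.063. Mrgpra2a, a Mas-related G-protein-coupled receptor with near-identical relatives that a probe set may not separate, was at 0.073, and 4833407H14Rik at 0.075. These 5 genes differed from AP control by 2.00 to 2.16 in cavtratin and by 0.87 to 0.97 in the array labelled Cav1-shRNA. With 3 arrays such likeness is easily met: 71 of the 11510 genes, or 0.617%, had cavtratin at least 1.5-fold above the array labelled Cav1-shRNA and that array at least 1.5-fold above AP control.

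**Figure D5:**
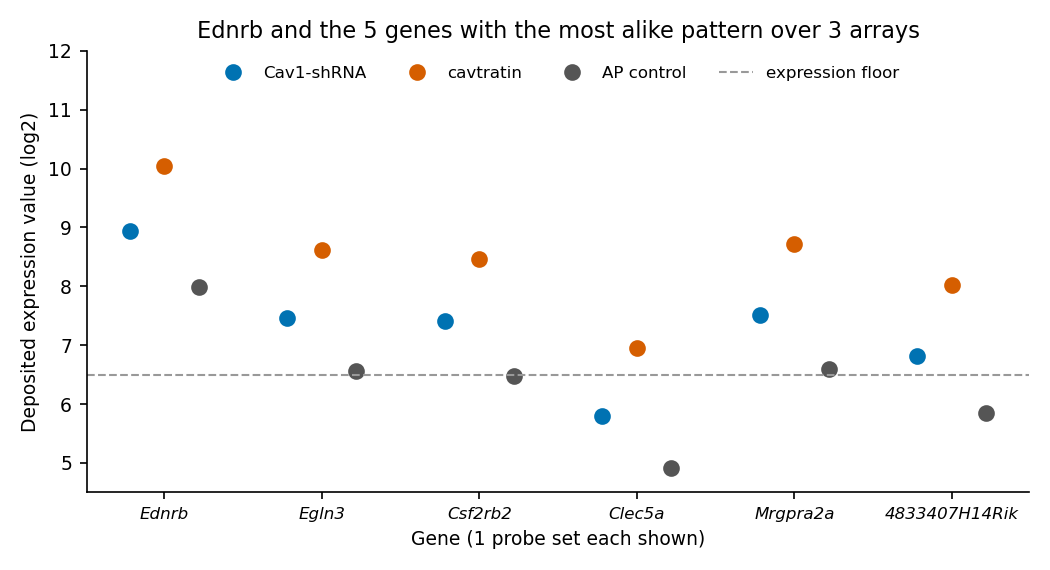
Deposited log2 expression (vertical axis) of Ednrb and the 5 genes closest to it in pattern, on the arrays of Cav1-shRNA, cavtratin and AP control, 1 point per array; the dashed line is the expression floor. In all 6 genes cavtratin is highest and AP control lowest, and Clec5a reaches the floor in cavtratin alone.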

How the data were processed

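Gene expression was measured on 3 Affymetrix whole-transcript arrays, 1 per group. Per the labels' protocols, biotin-labelled cDNA was made from total RNA extracted with TRIZOL. The deposited log2 values entered unaltered. Log2 was read from their range, since no label or header gives the log base, and the summarisation and normalization by the authors are likewise not given in the sources. Of 41345 probe sets, 23521 had 1 gene symbol in the platform annotation, which can be old, 1814 had several and 16010 none, and 23328 matched RefSeq of GRCm38.p6 by Entrez identifier. The probe set with the highest mean stood for a gene. Differences are array minus array. No test was possible with 1 array per group, and the number of arrays limits the precision. The code that counts differences was run on simulated data with shifts well beyond the threshold and no exact ties. That checks the code only and does not bear on the precision of these arrays. Alternatives were centring, quantile normalization, removal of a loess trend (span 0.3), averaging of probe sets, other floors and a 1.5-fold threshold. Values were called equal within 1e-09.

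Named were the 5 measured members, pathway list genes at least 1.5-fold apart at or above the floor, up to 6 per list, and the 5 genes closest in pattern to any member 1.5-fold apart. Cell type markers and other list genes are examples chosen after their values were seen. The members, the 5 pathway lists and the 10 cell type lists were chosen with earlier results of these data known. Python 3.11.15, pandas 2.3.3, numpy 2.4.6 and statsmodels 0.14.6 were used.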

Additional observations from a re-analysis of the deposited data

How the results depend on the processing

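All 45 values of the member differences under another scaling moved by less than the spread between probe sets of a gene, as did all 75 list medians under another scaling, probe set rule or floor. Averaging probe sets could not move a member, since each has 1. Ednrb stayed between 2.06 and 2.07 for cavtratin against AP control, between 0.96 and 1.02 for Cav1-shRNA against AP control, and between −1.11 and −1.06 for Cav1-shRNA against cavtratin. The number of members 2-fold apart for Cav1-shRNA against AP control was 0, and 1 after centring each array on its median and 1 at the 1.5-fold threshold, which in both cases was Ednrb. In the other comparisons it was 1 under all 7 alternatives. Centring adds 0.058 to every difference of Cav1-shRNA against AP control, 0.051 to those of Cav1-shRNA against cavtratin and 0.0067 to those of cavtratin against AP control, so the exact ties of Ece1 and Edn2 and the Edn1 difference of −0.016 between Cav1-shRNA and cavtratin, 0.035 after centring, have no direction. No paired analysis was possible because each group had 1 array and the labels share a single replicate number.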

Other observations

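Markers of rods and ganglion cells, neurons of the outer and inner retina, differed little between the arrays. Rod photoreceptor markers, 7 of 9 measured, summed to 14.95 in the array labelled Cav1-shRNA, 14.94 in cavtratin and 14.96 in AP control on the log2 scale, and retinal ganglion cell markers, 7 of 7 measured, to 12.30, 12.26 and 12.36. Among the ganglion cell markers, Pou4f1, a transcription factor of these cells, read 7.41, 7.15 and 7.45, the widest difference in both lists. Within the microglia and macrophage list the members did not move alike. Mpeg1, a pore-forming protein of macrophages, read 8.12, 8.54 and 6.90 in Cav1-shRNA, cavtratin and AP control, in the order of Ednrb. Trem2, a lipid-sensing receptor of microglia, read 7.51, 6.95 and 6.95, with the array labelled Cav1-shRNA above both others.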
